A study of Drosophila melanogaster with 33 samples.

Results

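Scalloped (Sd) is the TEAD-family DNA-binding protein of Drosophila melanogaster. It recruits the growth co-activator Yorkie (Yki) to target genes, and in the absence of Yki it can hold such genes down together with the co-repressor Tgi. With Vestigial it also forms the selector complex of the wing, and in the eye-antennal disc, the larval epithelium that forms the eye, antenna and head capsule, it is expressed without being a selector of the eye. The question addressed here is what loss of sd alone, without added Yki activity, changed and did not change in the messenger RNA of that disc.

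The comparison rested on 12 of the 33 libraries of the study. They were the 5 libraries labelled MARCM sd- and the 7 labelled MARCM ctrl, chosen by their group labels. MARCM is a mosaic method in which recombination at FRT sites makes homozygous clones that lose the Gal4 inhibitor Gal80 and so turn on green fluorescent protein. The 5 sd- samples carried the sd47M allele on an FRT19A X chromosome over tub-Gal80 FRT19A, with ey-FLP as the source of recombinase and an Act5C flip-out Gal4 (Act 5C<y+<Gal4) driving UAS-GFP. Of these, 3 belonged to sequencing run 1 and 2 to run 2. The 5 ctrl samples of run 1 had the same FRT19A, Gal80 and driver chromosomes without the sd allele. The 2 ctrl samples of run 2 carried FRT42D with its Gal80 chromosome, tub-Gal4 and UAS-GFP in a y w background, so that in run 2 the sd allele and the construct cannot be told apart. Run 1 samples were labelled as polyA RNA and run 2 samples as total RNA. Larvae were kept at 25°C and dissected 5 days after eggs were laid, and each sample pooled 30 discs or more.

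Whole discs were extracted, so each library mixed clone and non-clone cells, and the sources used here do not give the share of mutant cells. Fewer cells of a type and less RNA per cell cannot be told apart in such samples. Whether the samples of a group came from separate parents or dissections is not stated, and the p-values therefore cover only the spread among these libraries, which may be technical. Libraries were made from the 3' ends of transcripts, and levels are given as CPM, counts scaled to library size with TMM factors, which compare libraries within a gene. The tissue label fitted its markers. In run 1 the retinal regulator toy averaged 490 ± 44.6 CPM in sd- discs and 487 ± 19.6 CPM in ctrl discs, and the antennal gene Dll averaged 147 ± 6.19 CPM in sd- discs and 147 ± 8.53 CPM in ctrl discs (SD, n = 3 and 5).

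Library totals were 7383459 to 11952153 counts in sd- and 8084987 to 15273835 counts in ctrl discs of run 1, and 18701236 to 18921185 counts in sd- and 18627105 to 19128356 counts in ctrl discs of run 2. The run separated the libraries far more than the genotype did. Correlations of log2 CPM were 0.771 to 0.828 between runs, 0.934 to 0.985 between sd- and ctrl libraries of run 1 and 0.983 to 0.988 between sd- and ctrl libraries of run 2. Within run 1, sd- replicate 3 stood apart from all others. Genes were counted where the higher side, the library itself or the lowest of the others, had at least 10 CPM. In that library 76 genes exceeded 2 times the highest value of the other 7 libraries of run 1, and 272 were below 0.5 times their lowest, against at most 11 and 2 genes for any other library. Its levels of roX1 and roX2, noncoding RNAs of the male dosage compensation complex, were 264 and 40.2 CPM, against medians of 6.37 and 0.722 CPM in the other libraries of run 1, while a genotype with both X homologues, as written for these samples, is female. Its yki level was 1.48 CPM. In run 2, roX1 had 2.18 and 2.63 CPM in sd- and 13.6 and 34.3 CPM in ctrl libraries, and roX2 had 0 and 0.0360 CPM in sd- and 0.324 and 0.835 CPM in ctrl libraries. The groups of run 2 thus did not overlap in either RNA. Neither passed there in edgeR, but the fit uses 1 spread per gene for both runs, which here included sd- run 1 replicate 3. That test therefore does not settle whether the groups of run 2 differed. Of the 9100 tested genes, 51.2% had no overlap between the groups in run 2 and 5.64% had none in run 1. The share without overlap in either run and with the same direction was 1.85%. Main counts are also given without sd- run 1 replicate 3, as are the values of several genes in which it was the lowest or highest library.

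**Figure D1:**
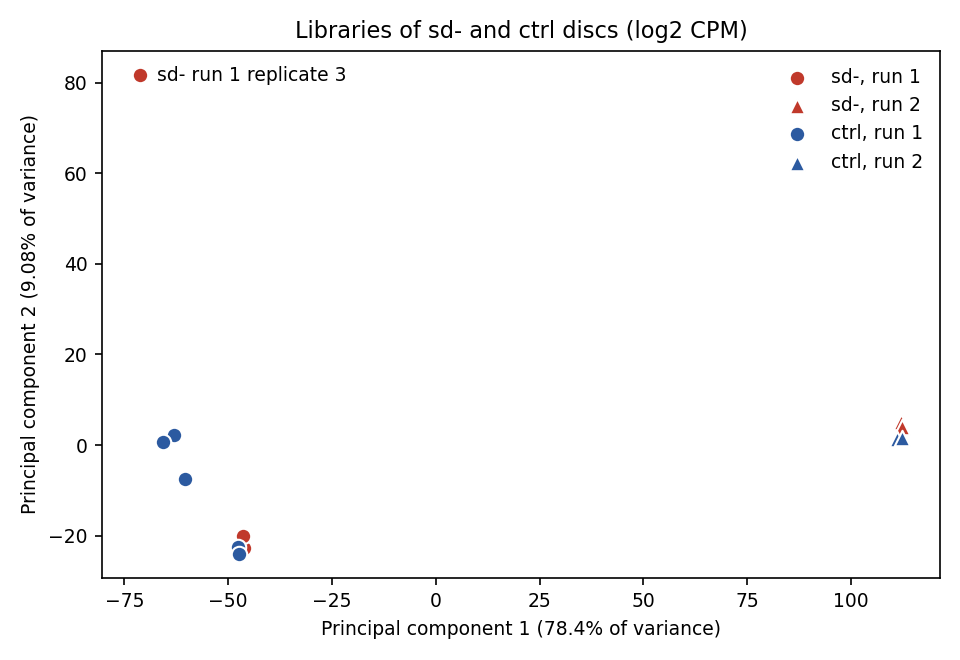
Principal components of log2 CPM for the 12 libraries, with sd- in red and ctrl in blue, circles for run 1 and triangles for run 2. Component 1 holds 78.4% of the variance and separates the runs, and component 2 holds 9.08% and sets sd- run 1 replicate 3 apart at 81.7.

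A finer grouping was present in run 1 that the labels do not describe. The ctrl replicates 4 and 5 correlated with sd- replicates 1 and 2 at 0.981 to 0.985, and with ctrl replicates 1 to 3 at 0.974 to 0.984. The adhesion gene ed (echinoid) had 1941, 1874 and 1174 CPM in the sd- libraries of run 1, against 1366, 1329, 1308, 1884 and 1944 CPM in the ctrl libraries. The high levels were those of sd- replicates 1 and 2 and of ctrl replicates 4 and 5. The part of this grouping in the results was not tested.

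The targeted gene was examined first. The sd gene (X, 15804370 to 15827682, dm6) had 356, 302 and 415 CPM in the sd- libraries of run 1, against 446, 494, 480, 413 and 433 CPM in the ctrl libraries, and 244 and 222 CPM in sd- against 249 and 242 CPM in ctrl libraries of run 2. The groups overlapped in run 1 through sd- replicate 3. With run as a term, the log2 fold change of sd- over ctrl was -0.25 ± 0.09 (SE, edgeR quasi-likelihood test, adjusted p = 0.516). Without sd- run 1 replicate 3, sd was lower in the sd- discs of run 1 by edgeR, with a log2 fold change of -0.49 (adjusted p = 0.0203). Which part of the gene the sd47M allele alters could not be taken from the labels, and the discs were mosaic, so the level of sd does not check the genotype. In the annotation the gene overlaps CG8509 and the antisense RNA CR44384, whose reads could have been counted with it.

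The co-activator gene yki did not differ between the groups beyond its spread. It had 75.6, 69.5 and 1.48 CPM in sd- and 28.6, 20.5, 29.0, 58.2 and 63.7 CPM in ctrl libraries of run 1, and 68.3 and 67.0 CPM in sd- and 70.7 and 67.8 CPM in ctrl libraries of run 2. The ctrl libraries of run 1 fell into 3 low and 2 high values. The log2 fold change with run as a term was 0.18 ± 0.54 (SE, edgeR, adjusted p = 0.980). Its 95% interval of -0.99 to 1.34 ended just short of a 2-fold fall and did not exclude a 2-fold rise. The fit uses 1 spread per gene for both runs, and the wide values were those of run 1. The log2 fold change was 0.47 without sd- run 1 replicate 3 (interval -0.19 to 1.14).

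Across the transcriptome, few genes differed between sd- and ctrl discs when the runs were fitted together. With run as a term, 8 of 9100 tested genes (0.0879%) passed an adjusted p under 0.05 in edgeR, of which 5 were higher and 3 lower in sd- discs, and 680 (7.47%) had an unadjusted p under 0.05. The higher genes were Tektin-C, CG2187, CG32364 (named tut in the annotation), Cpr92A and let-7-C. The lower genes were mthl8, Cyp6a23 and CG14257. All 8 moved in the same direction in both runs, which choosing genes by their change over both runs favours. Of these, only mthl8, Tektin-C, CG32364 and Cyp6a23 also passed in each run on its own. The count was 81 with DESeq2 (0.89%), 26 with limma-voom (0.286%) and 19 of 9059 tested genes (0.21%) without sd- run 1 replicate 3.

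The 95% intervals describe how much change in the level of the whole, mosaic disc the data still allow. They do not bound the change within sd- clones, whose share of each disc is not known. The interval of the log2 fold change lay within 2-fold in either direction for 7286 of the 9100 genes (80.1%) and within 1.5-fold for 5357 (58.9%). Of the 9100 genes, 4831 (53.1%) had a positive log2 fold change. The median size of the log2 fold change was 0.12 and the median SE 0.16. Without sd- run 1 replicate 3, 7461 of 9059 tested genes (82.4%) had intervals within 2-fold and 5968 (65.9%) within 1.5-fold. The intervals of the remaining genes reached past 2-fold in at least 1 direction at this depth and number of libraries, or could not be computed. Some lay wholly beyond 2-fold, such as those of mthl8 (-3.92 to -2.65) and Tektin-C (4.57 to 6.72).

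The gene mthl8 (3L, 22428 to 26308, dm6), a member of the methuselah-like family of G protein-coupled receptors, had the most negative fold change of the 3 lower genes. It had 0.621, 0.822 and 0.164 CPM in sd- libraries of run 1, against 12.5, 13.3, 11.8, 13.1 and 10.8 CPM in ctrl libraries. In run 2 it had 6.03 and 5.98 CPM in sd- and 35.3 and 34.4 CPM in ctrl libraries. Every sd- library lay below every ctrl library of its run. The log2 fold change with run as a term was -3.28 ± 0.29 (SE, edgeR, adjusted p = 0.000400). It was -4.40 in run 1 and -2.53 in run 2, and the test of the difference between runs did not pass (edgeR, adjusted p = 0.083).

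Tektin-C (3L, 5794405 to 5796543, dm6), which encodes a filament protein of cilia and sperm tails, was close to absent from ctrl discs. It had 11.4, 10.6 and 6.39 CPM in sd- and 0, 0.586, 0.238, 0.0802 and 0 CPM in ctrl libraries of run 1. In run 2 it had 7.07 and 11.5 CPM in sd- and 0.180 and 0.243 CPM in ctrl libraries. The level in sd- discs was similar in both runs. The log2 fold change was 5.64 ± 0.50 (SE, edgeR, adjusted p = 9.27e-05), and this was the only gene of the 8 that passed in every alternative that could be fitted.

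Cpr92A (3R, 19597502 to 19598955, dm6), which encodes a cuticle protein, was higher in every sd- library than in any ctrl library of its run. It had 26.4, 21.8 and 9.34 CPM in sd- and 5.06, 2.64, 3.81, 5.53 and 4.50 CPM in ctrl libraries of run 1, and 4.03 and 6.37 CPM in sd- and 1.84 and 1.70 CPM in ctrl libraries of run 2. The log2 fold change was 1.94 ± 0.27 (SE, edgeR, adjusted p = 0.0122). It passed in run 1 alone (edgeR adjusted p = 0.0149) and not in run 2 (adjusted p = 0.379), and the difference between runs did not pass (adjusted p = 0.99989).

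The primary transcript let-7-C, which carries the let-7 microRNA and its neighbours and is known to rise with ecdysone at the end of larval life, was higher in the sd- discs of run 1. It had 27.4, 30.5 and 35.2 CPM in sd- and 11.7, 13.6, 17.96, 15.0 and 11.1 CPM in ctrl libraries of run 1. In run 2 it was near the limit of detection, with 0.642 and 0.468 CPM in sd- and 0.432 and 0.383 CPM in ctrl libraries. The log2 fold change was 1.02 ± 0.17 (SE, edgeR, adjusted p = 0.048), and the call held in 5 of 21 alternatives. CG14257 (3R, 27075870 to 27082818, dm6) fell by 0.51 ± 0.08 on the log2 scale (SE, edgeR, adjusted p = 0.038). It had 50.3, 53.9 and 43.3 CPM in sd- and 68.0, 66.7, 74.9, 75.1 and 75.7 CPM in ctrl libraries of run 1, and 14.8 and 13.4 CPM in sd- and 18.9 and 18.8 CPM in ctrl libraries of run 2. No sd- value reached a ctrl value of its run, beside 1.85% of all genes without overlap in either run and with the same direction. The call held in 6 of 21 alternatives.

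The other 3 called genes had low levels. CG32364, whose product tut is an RNA-binding protein known from the testis germ line, had 3.60, 4.11 and 8.03 CPM in sd- and 1.21, 0.879, 1.67, 1.36 and 1.57 CPM in ctrl libraries of run 1, with 10.7 and 9.61 CPM in sd- and 0.396 and 0.383 CPM in ctrl libraries of run 2 (edgeR log2 fold change 2.93, adjusted p = 0.038). CG2187 had 0.164 to 1.14 CPM in the 5 sd- libraries and was at 0 in 6 of the 7 ctrl libraries, the other having 0.147 CPM (edgeR adjusted p = 0.0122). Cyp6a23, a cytochrome P450 gene, had 0.0714 to 0.308 CPM in sd- and 0.684 to 1.67 CPM in ctrl libraries (edgeR log2 fold change -2.53, adjusted p = 0.00797). It lies next to its paralogue Cyp6a17 on 2R, and reads of the pair could have been split between them.

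**Figure D2:**
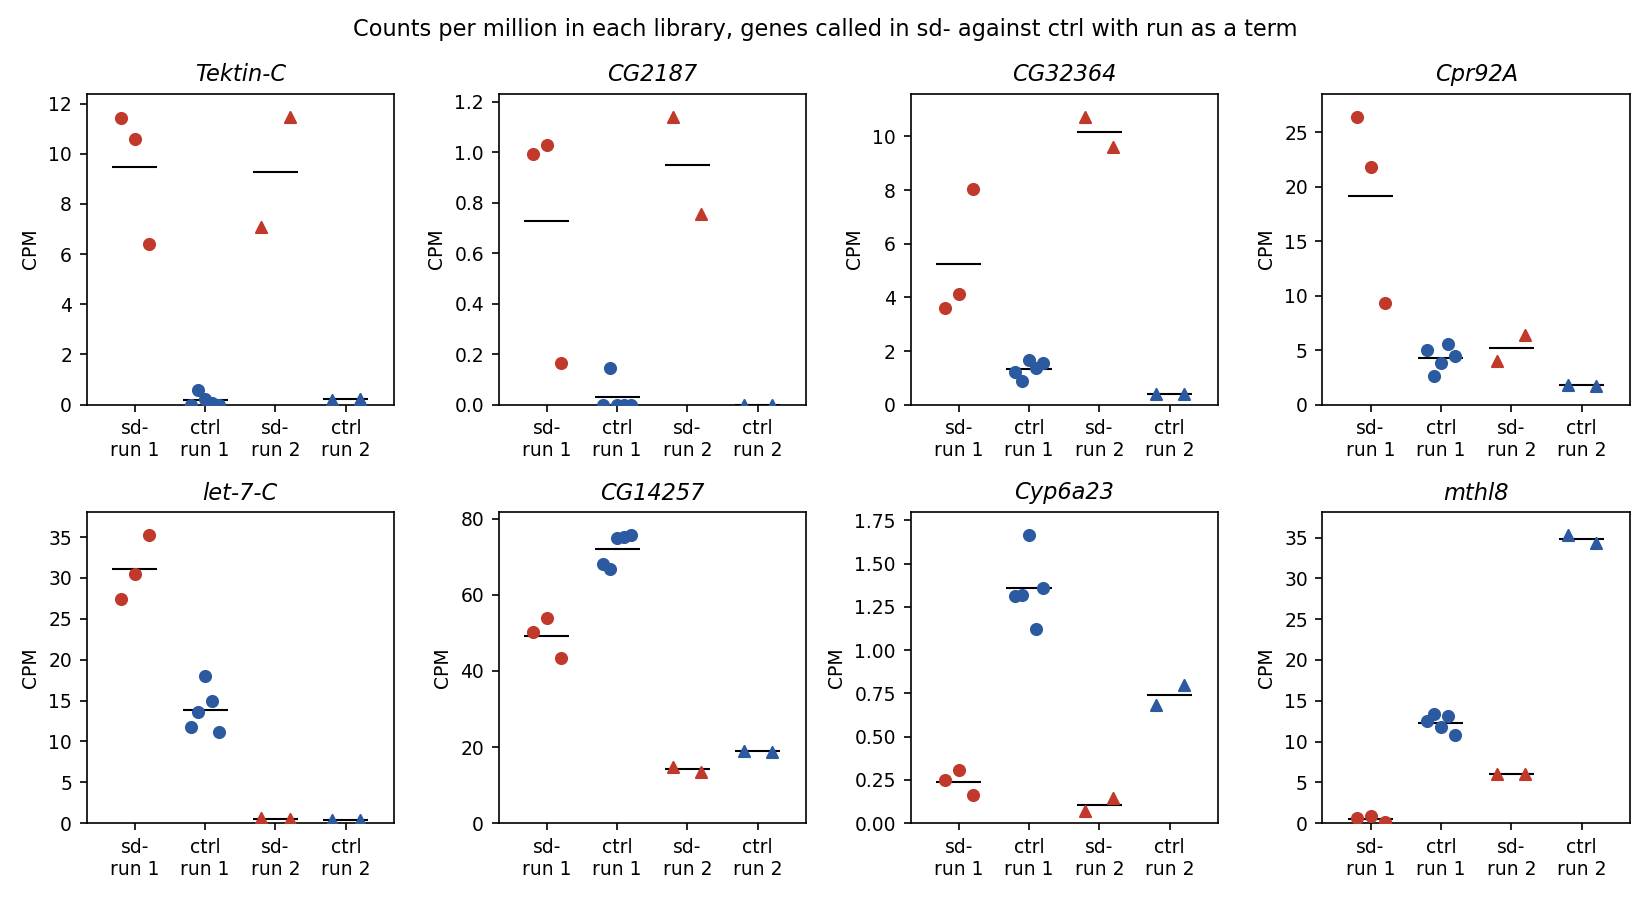
CPM in each library for the 8 genes that passed with run as a term, in sd- (red) and ctrl (blue) discs of run 1 (circles) and run 2 (triangles), with group means as lines. In each run the sd- values of Tektin-C, 6.39 to 11.5 CPM, lie above all ctrl values, and those of mthl8 lie below all ctrl values.

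Each run was also read on its own. In run 1, where both groups share the chromosome arm and the driver, 29 of 9100 genes passed in edgeR (0.319%), 20 higher and 9 lower in sd- discs, and 873 (9.59%) had an unadjusted p under 0.05. In run 2, 52 passed (0.571%), 35 higher and 17 lower, and 422 (4.64%) had an unadjusted p under 0.05. In both runs 6 genes passed, of the 29 and the 52, beside 0.319% of all genes in run 1 and 0.571% in run 2. Of these, mthl8, Tektin-C, CG32364 and Cyp6a23 moved in the same direction, and CR40469 and CG5707 moved in opposite directions. Over the 9100 genes the log2 fold changes of the runs had a Pearson correlation of 0.0433, and 4691 had the same sign. This correlation is across genes, which are not independent replicates. The change itself differed between runs for 32 genes (0.352%), of which 12 were more positive in run 1 and 20 in run 2, and 498 (5.47%) had an unadjusted p under 0.05. Without sd- run 1 replicate 3, the counts were 84 in run 1 (0.927%), 124 in run 2 (1.37%) and 99 for the difference (1.09%).

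**Figure D3:**
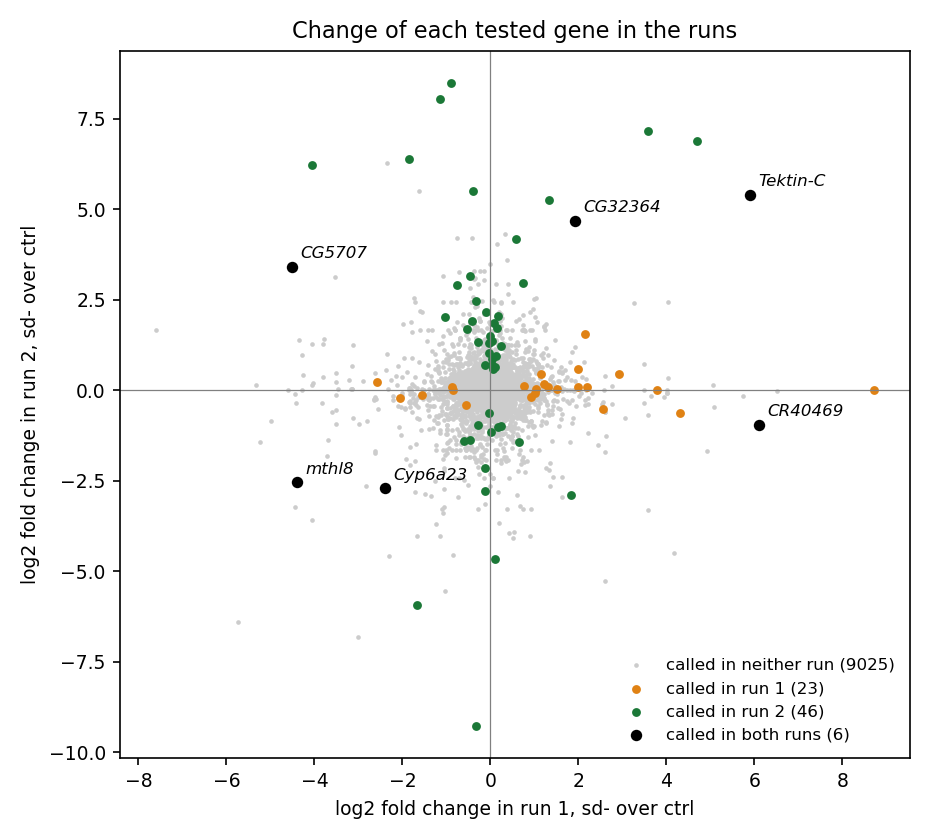
Log2 fold change of sd- over ctrl in run 1 (horizontal) and run 2 (vertical) for 9100 genes, coloured by the run in which they passed. The 6 genes that passed in both runs are named, and CR40469 and CG5707 lie in quadrants of opposite sign.

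Among the genes named in run 1, which had a mean of at least 10 CPM, the largest rise was that of CR40469, a noncoding RNA near the tip of the X chromosome (X, 122493 to 122706, dm6). It had 22057, 24589 and 27502 CPM in sd- and 323, 390, 443, 318 and 326 CPM in ctrl libraries of run 1, a log2 fold change of 6.10 ± 0.12 (SE, edgeR, adjusted p = 2.49e-10). In run 2 it had 15.2 and 14.3 CPM in sd- and 29.8 and 27.1 CPM in ctrl libraries, which was lower in sd- discs (log2 fold change -0.95, edgeR adjusted p = 0.030). The groups did not overlap in either run, and they were separated in opposite directions. Of all tested genes, 5.64% had no overlap in run 1 and 51.2% had none in run 2.

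The methuselah-like genes mthl3 and mthl4, neighbours on 2R, rose there. mthl3 had 50.3, 54.5 and 36.6 CPM in sd- and 7.48 to 15.6 CPM in ctrl libraries (log2 fold change 1.99, edgeR adjusted p = 0.00105). mthl4 had 10.7, 13.3 and 11.5 CPM in sd- and 3.66 to 4.49 CPM in ctrl libraries (log2 fold change 1.52, edgeR adjusted p = 0.000169). In run 2 neither passed, with 56.1 and 59.2 CPM in sd- and 51.8 and 55.9 CPM in ctrl libraries for mthl3, and the difference between runs passed for both (edgeR adjusted p = 0.0491 and 0.00585). The immunoglobulin-domain gene dpr19 had 27.8, 14.8 and 14.9 CPM in sd- and 3.54 to 4.89 CPM in ctrl libraries of run 1 (log2 fold change 2.21, edgeR adjusted p = 0.00103).

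Among the genes that fell in run 1 was Arpc1, a subunit of the actin-nucleating Arp2/3 complex. It had 32.5, 51.1 and 26.7 CPM in sd- and 111, 103, 114, 102 and 117 CPM in ctrl libraries (log2 fold change -1.56, edgeR adjusted p = 0.00159). In run 2 Arpc1 had 79.8 and 81.7 CPM in sd- and 90.5 and 86.0 CPM in ctrl libraries and did not pass. The ArfGAP-domain gene drongo had 45.6 to 56.5 CPM in sd- and 84.2 to 102 CPM in ctrl libraries of run 1 (log2 fold change -0.88, edgeR adjusted p = 0.00159). Rab40, a small GTPase gene, had 6.89 to 7.70 CPM in sd- and 12.3 to 14.3 CPM in ctrl libraries of run 1 (log2 fold change -0.85, edgeR adjusted p = 0.013). Neither passed in run 2.

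In run 2, where the control had another construct, the named rises were those of CG3339, y, Spn47C, CG32364 and CR34335. The pigment gene y, whose wild-type copy is part of the flip-out cassette and whose mutant allele is part of the run 2 control genotype, had 15.7 and 17.1 CPM in sd- and 0.0720 and 0.139 CPM in ctrl libraries of run 2 (edgeR adjusted p = 0.04996). In run 1 it had 0.621, 0.720 and 14.9 CPM in sd- and 0.238 to 0.642 CPM in ctrl libraries, so that sd- replicate 3 had a level near that of run 2. The serpin gene Spn47C had 26.1 and 28.7 CPM in sd- and 0.900 and 0.522 CPM in ctrl libraries of run 2 (log2 fold change 5.26, edgeR adjusted p = 0.000137), and 6.58 to 9.18 CPM in sd- and 2.25 to 3.84 CPM in ctrl libraries of run 1, where it missed the threshold (adjusted p = 0.053). The noncoding RNA CR34335 had 32988 to 66937 CPM in sd- and 83364 to 104063 CPM in ctrl libraries of run 1, but 25.1 and 23.9 CPM in sd- and 3.49 and 3.06 CPM in ctrl libraries of run 2.

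The named falls of run 2 were CG31918 (named Nepl3 in the annotation), mthl8, CG3568, CG7054 and GstT3. CG31918 had 7.49 and 7.45 CPM in sd- and 52.4 and 50.5 CPM in ctrl libraries (log2 fold change -2.78, edgeR adjusted p = 0.0122), and overlaps the histone gene His3.3A on the other strand. GstT3, a glutathione transferase gene, had 6.82 and 5.36 CPM in sd- and 15.8 and 16.0 CPM in ctrl libraries of run 2 (log2 fold change -1.38, edgeR adjusted p = 0.00645). In run 1 GstT3 had 18.8 to 24.2 CPM in sd- and 25.7 to 35.3 CPM in ctrl libraries, on the same side without passing. CG7054 had 4.14 and 5.15 CPM in sd- and 11.98 and 12.4 CPM in ctrl libraries of run 2, and 15.1 to 17.3 CPM in sd- and 20.7 to 29.3 CPM in ctrl libraries of run 1. With run as a term it missed the threshold (log2 fold change -0.88, edgeR adjusted p = 0.057).

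Position on the chromosomes was described because the sd allele is on the X. Of 1544 tested genes of the X, 5 passed in run 1 (0.324%) and 18 in run 2 (1.17%), beside 0.319% and 0.571% of all genes. For 3L the counts were 7 and 17 of 1764 genes (0.397% and 0.964%), and for 2L 6 and 1 of 1577 genes (0.380% and 0.0634%). Of the 121 tested genes within 500000 bases of sd, 0 passed with run as a term and 0 in run 1 by edgeR, and 100 had intervals within 2-fold. Chc, which encodes the clathrin heavy chain and whose 3' end faces that of sd at a distance of 304 bases, passed in run 2. It had 1063 and 1001 CPM in sd- and 657 and 656 CPM in ctrl libraries of run 2 (log2 fold change 0.65 ± 0.10, SE, edgeR adjusted p = 0.0106). In run 1 Chc had 295, 297 and 339 CPM in sd- and 273 to 305 CPM in ctrl libraries and did not pass.

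In whole discs, most genes through which Yki and Sd are known to act on growth had intervals within 2-fold of their control levels. Changes within the clones could be larger. Of 19 listed Yki and Sd target genes, 18 were tested and none passed with run as a term in edgeR, DESeq2 or limma-voom, beside 0.0879% of all genes in edgeR. None passed in either run. At this background a count of 0 sets the list apart in no way. Of the 18, 3 had an unadjusted p under 0.05 (ex, kibra and crb), beside 7.47% of all genes. The median log2 fold change was 0.05 (range -0.22 to 0.74), beside 0.01 over all genes, and 16 had intervals within 2-fold and 13 within 1.5-fold, beside 80.1% and 58.9% of all genes.

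The survival gene th, which encodes the caspase inhibitor Diap1, had 488, 485 and 399 CPM in sd- and 441, 428, 416, 491 and 497 CPM in ctrl libraries of run 1, and 363 and 345 CPM in sd- and 380 and 369 CPM in ctrl libraries of run 2. Its log2 fold change was -0.02, with a 95% interval of -0.18 to 0.13 (edgeR adjusted p = 0.982). CycE, which drives entry into S phase, had 75.6, 72.8 and 92.4 CPM in sd- and 69.3 to 77.0 CPM in ctrl libraries of run 1 (log2 fold change with run as a term 0.13, interval -0.04 to 0.30). For both genes the groups overlapped in run 1, and changes of the whole-disc level beyond 1.5-fold lay outside the interval.

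The growth regulator dm, which encodes Myc, had 575, 517 and 236 CPM in sd- and 482 to 536 CPM in ctrl libraries of run 1 (log2 fold change -0.06, interval -0.43 to 0.31). Without sd- run 1 replicate 3 the log2 fold change was 0.13 (interval 0.02 to 0.25, edgeR adjusted p = 0.426). E2f, the cell cycle transcription factor gene now named E2f1, had 1166, 1166 and 724 CPM in sd- and 1184 to 1228 CPM in ctrl libraries of run 1 (log2 fold change -0.13, interval -0.37 to 0.11). Again the lowest value was that of sd- replicate 3, without which the log2 fold change was 0.0039 (interval -0.10 to 0.11).

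The targets that feed back on the pathway had positive log2 fold changes that did not pass. kibra, an upstream activator of Warts, had 67.8, 62.5 and 67.4 CPM in sd- and 50.7, 58.0, 52.2, 61.0 and 61.5 CPM in ctrl libraries of run 1, and 48.5 and 39.9996 CPM in sd- and 32.5 and 39.1 CPM in ctrl libraries of run 2. No sd- value fell below a ctrl value of its run, beside 1.85% of all genes without overlap in either run and with the same direction. The log2 fold change of kibra was 0.25 ± 0.09 (SE, interval 0.06 to 0.43, edgeR adjusted p = 0.498). The FERM-domain gene ex had 79.7, 76.1 and 167 CPM in sd- and 63.5 to 90.4 CPM in ctrl libraries of run 1, and 425 and 426 CPM in sd- and 342 and 400 CPM in ctrl libraries of run 2. Its log2 fold change of 0.40 (interval 0.01 to 0.79, edgeR adjusted p = 0.646) became 0.11 (interval -0.09 to 0.32) without sd- run 1 replicate 3. The apical polarity gene crb had 285, 273 and 276 CPM in sd- and 187 to 269 CPM in ctrl libraries of run 1, and 334 and 299 CPM in sd- and 279 and 273 CPM in ctrl libraries of run 2 (log2 fold change 0.25, interval 0.06 to 0.43, edgeR adjusted p = 0.498). Mer, which acts beside ex and kibra, had a log2 fold change of 0.06 (interval -0.20 to 0.33).

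Among the signalling targets, the glypican gene dally had 902 to 1093 CPM in sd- and 891 to 971 CPM in ctrl libraries of run 1 (log2 fold change 0.04, interval -0.10 to 0.18), whereas dlp had 160, 160 and 49.99 CPM in sd- and 86.6 to 168 CPM in ctrl libraries (-0.0048, interval -0.58 to 0.57). Without sd- run 1 replicate 3 the log2 fold change of dlp was 0.21 (interval -0.21 to 0.62) and that of wg 0.23 (-0.07 to 0.53). The Golgi kinase gene fj had a log2 fold change of -0.14 (interval -0.29 to 0.01), the Notch ligand gene Ser 0.27 (-0.07 to 0.61), the EGF receptor ligand gene vn 0.07 (-0.14 to 0.27) and the Wnt ligand gene wg 0.00 (-0.55 to 0.56). The transcription factor gene chinmo had -0.15 (-0.47 to 0.17). Without sd- run 1 replicate 3, fj had -0.19 (interval -0.34 to -0.04, edgeR adjusted p = 0.371). In that fit Ser had 0.31 (-0.03 to 0.66), vn 0.06 (-0.15 to 0.28) and chinmo -0.22 (-0.58 to 0.13). The cytokine and relaxin-like genes were barely expressed. The JAK-STAT ligand gene os had 2.95 to 3.10 CPM in sd- and 2.09 to 4.04 CPM in ctrl libraries of run 1, upd2 was under 1 CPM in all 12 libraries, upd3 was too low to test, and Ilp8 had 1.15 to 2.98 CPM in sd- and 0.314 to 1.19 CPM in ctrl libraries of run 1. The intervals of upd2 and Ilp8, -0.32 to 1.68 and -0.22 to 1.70, reached past a 2-fold rise. For upd2 the log2 fold change was 0.35 without sd- run 1 replicate 3 (interval -0.59 to 1.30) and 0.68 with it.

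**Figure D4:**
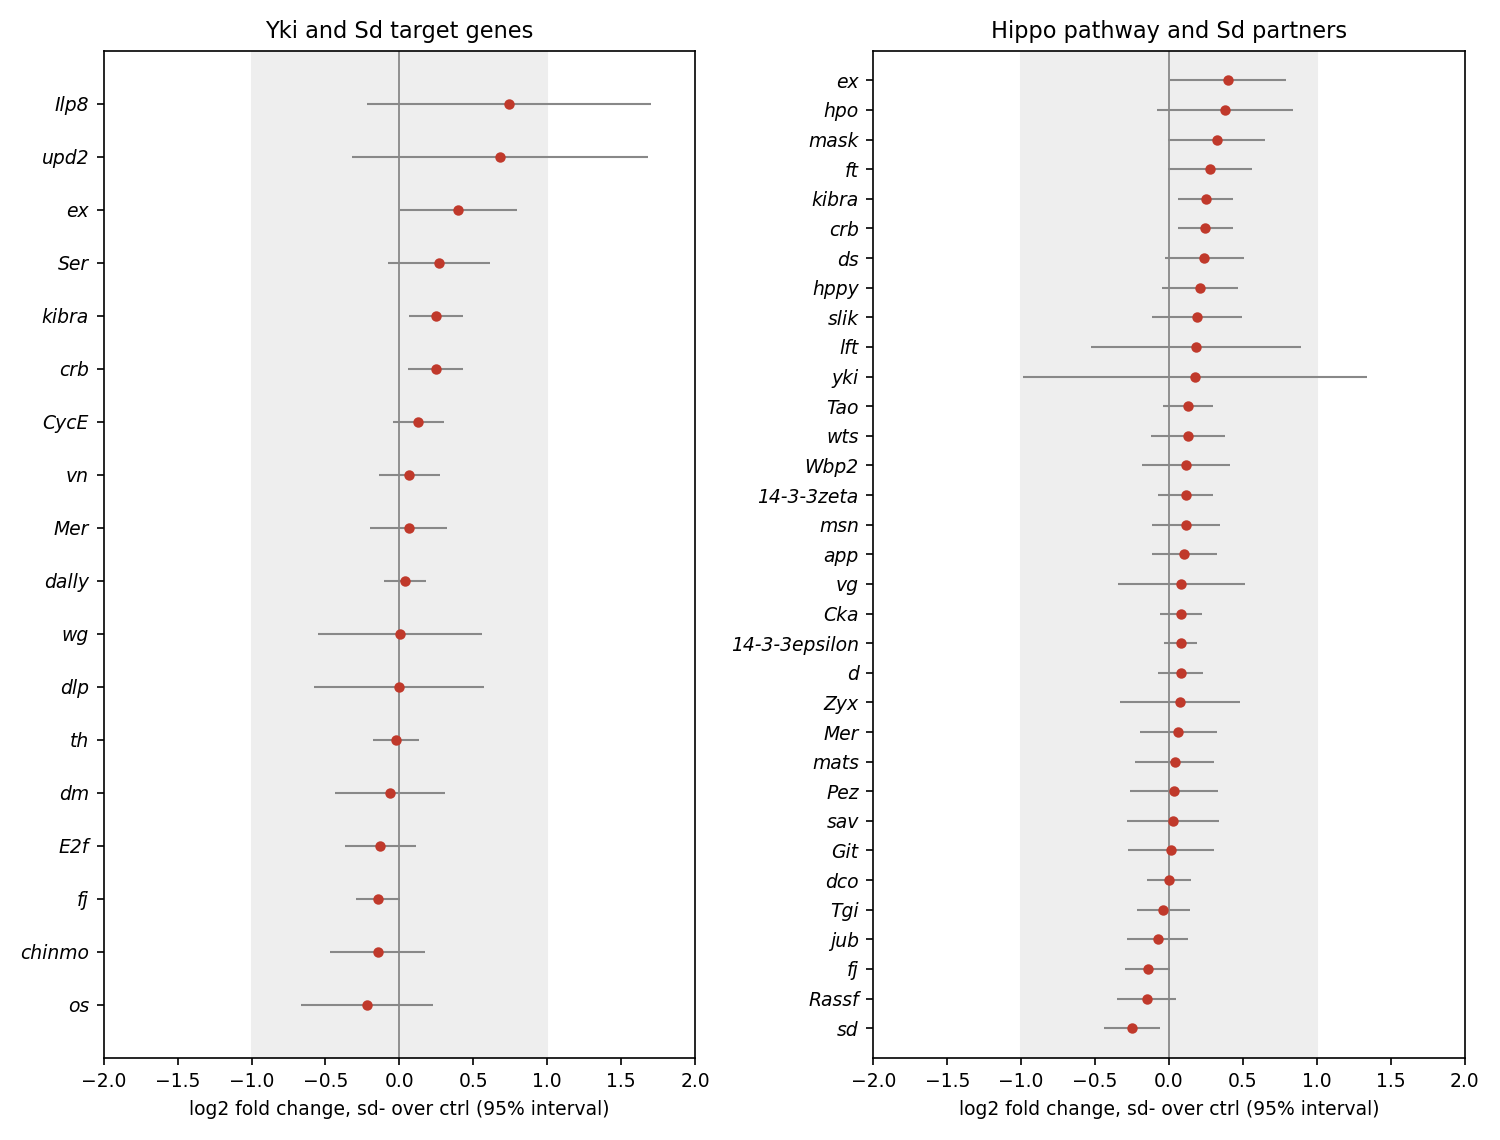
Log2 fold change of sd- over ctrl with run as a term and its 95% interval for 18 Yki and Sd target genes (left) and 33 Hippo pathway genes and Sd partners (right), with changes under 2-fold shaded. Intervals of 16 and 32 genes lie inside the shaded area, and yki, upd2 and Ilp8 are the exceptions.

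Members of the Hippo pathway were read against the same shares of all genes, 0.0879% called, 7.47% at an unadjusted p under 0.05, and 80.1% and 58.9% with intervals within 2-fold and 1.5-fold. Of 33 listed components and Sd partners, all tested, none passed with run as a term in edgeR, DESeq2 or limma-voom, 4 had an unadjusted p under 0.05 (sd, ex, kibra and crb), and the median log2 fold change was 0.10 (range -0.25 to 0.40). The intervals of 32 lay within 2-fold and of 28 within 1.5-fold, and yki was the exception to the first. The kinase genes hpo and wts had 0.38 (interval -0.08 to 0.84) and 0.13 (-0.12 to 0.38), and the adaptor genes sav and mats had 0.03 (-0.29 to 0.34) and 0.04 (-0.23 to 0.31). For hpo the run 1 values were 9.81, 12.1 and 23.1 CPM in sd- and 6.42 to 10.7 CPM in ctrl libraries, with the highest again in sd- replicate 3. Without that library hpo had 0.08 (interval -0.17 to 0.33), wts -0.02, sav -0.14 and mats -0.14, and 31 of the 33 genes had intervals within 1.5-fold.

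The mRNAs of 2 other Sd partners were examined beside yki. Tgi, the co-repressor, had 28.9, 28.4 and 22.9 CPM in sd- and 26.0 to 30.6 CPM in ctrl libraries of run 1, and 93.2 and 91.6 CPM in sd- and 84.0 and 90.6 CPM in ctrl libraries of run 2 (log2 fold change -0.04, interval -0.22 to 0.14). The wing cofactor vg was low, with 3.23 to 5.57 CPM in sd- and 2.83 to 5.35 CPM in ctrl libraries of run 1 (0.08, interval -0.35 to 0.51). The atypical cadherin genes ft and ds, which act upstream of the pathway, had 0.28 (-0.01 to 0.56) and 0.24 (-0.03 to 0.50). For ft the sd- libraries of run 1 had 484, 438 and 838 CPM, against 443 to 489 CPM in ctrl libraries, and without sd- replicate 3 its log2 fold change was 0.07. That of ds was 0.30 without the same library (interval 0.07 to 0.54, edgeR adjusted p = 0.355).

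Growth and proliferation lists had 0 called members in edgeR, DESeq2 and limma-voom with run as a term, where 0.0879%, 0.89% and 0.286% of all genes were called, so that these zeros set no list apart. Of 35 cell cycle and replication genes all had intervals within 2-fold and 30 within 1.5-fold (median log2 fold change 0.03, range -0.30 to 0.30, 3 at an unadjusted p under 0.05). The mitotic phosphatase gene stg had 806, 746 and 549 CPM in sd- and 709 to 828 CPM in ctrl libraries of run 1 (0.00, interval -0.23 to 0.23), and PCNA, the sliding clamp of replication, had 0.12 (-0.05 to 0.28). All 21 ribosome biogenesis genes had intervals within 2-fold (median -0.03, 1 at an unadjusted p under 0.05). Without sd- run 1 replicate 3, Surf6 of this list was called lower in run 1 (log2 fold change -0.56, edgeR adjusted p = 0.0300), where 0.927% of all genes were called. Of 16 tested apoptosis genes, all had intervals within 2-fold (median 0.04, none at an unadjusted p under 0.05), among them the pro-apoptotic gene W (hid) with 307, 338 and 333 CPM in sd- and 309 to 371 CPM in ctrl libraries of run 1 (0.03, interval -0.19 to 0.26).

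Lists of eye and antennal identity also had 0 called members in the 3 tools, which at the same shares of all genes sets no list apart, and their counts at an unadjusted p under 0.05 stand beside 7.47% of all genes. For retinal determination, all 15 tested genes had intervals within 2-fold (median 0.03, 1 at an unadjusted p under 0.05). The eye specification gene eya had 96.0, 81.3 and 21.3 CPM in sd- and 39.3 to 86.3 CPM in ctrl libraries of run 1 (0.17, interval -0.49 to 0.84), and dac had 76.2, 68.2 and 90.0 CPM in sd- and 50.5 to 76.9 CPM in ctrl libraries of run 1 (0.24, interval 0.01 to 0.48). For the antenna all 17 tested genes had intervals within 2-fold (median 0.03, 2 at an unadjusted p under 0.05), and for dorsal eye, head capsule and peripodial genes all 15 did (median 0.08, none at an unadjusted p under 0.05). The homeobox gene hth, a member of all 3 lists, had 4546, 4592 and 4372 CPM in sd- and 4610 to 5419 CPM in ctrl libraries of run 1 (-0.07, interval -0.20 to 0.06).

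Of the photoreceptor genes none passed in edgeR, DESeq2 or limma-voom with run as a term. All 31 proneural and photoreceptor genes had intervals within 2-fold, 25 of 31 had a positive log2 fold change, beside 53.1% of all genes (median 0.15, beside 0.01 over all genes), and 8 had an unadjusted p under 0.05, beside 7.47% of all genes. The neuronal gene elav had 416, 436 and 502 CPM in sd- and 400 to 458 CPM in ctrl libraries of run 1, and 130 and 117 CPM in sd- and 91.6 and 103 CPM in ctrl libraries of run 2 (0.17, interval 0.01 to 0.34, edgeR adjusted p = 0.634). The EGF receptor effector aop had 955, 929 and 1711 CPM in sd- and 899 to 1251 CPM in ctrl libraries of run 1 (0.25, interval -0.08 to 0.58). The median of the list was 0.06 in run 1 and 0.21 in run 2, and in run 1 without sd- replicate 3 it was -0.03. The 19 neuronal genes had a median of 0.17, with 0 called in edgeR, 2 called in DESeq2 (0.89% of all genes) and 7 at an unadjusted p under 0.05 (7.47% of all genes). In run 1 without sd- replicate 3 their median was -0.05. Among them cpo, which encodes an RNA-binding protein of the nervous system, had 681, 665 and 574 CPM in sd- and 534 to 624.95 CPM in ctrl libraries of run 1 and 145 and 122 CPM in sd- and 97.6 and 95.1 CPM in ctrl libraries of run 2 (0.26, interval 0.09 to 0.44, edgeR adjusted p = 0.367). Appl, the fly homologue of the amyloid precursor protein gene, had opposite signs in the runs. It had 334, 312 and 418 CPM in sd- and 404 to 450 CPM in ctrl libraries of run 1 (-0.27), and 269 and 237 CPM in sd- and 167 and 148 CPM in ctrl libraries of run 2 (0.69). With all libraries it passed in neither run, and without sd- run 1 replicate 3 it was called lower in run 1. The difference between runs passed (edgeR adjusted p = 0.0456).

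Counts of signalling read-outs stand beside the same shares of all genes, and none passed in edgeR with run as a term. Of 25 EGFR, Dpp, Wg and Hh read-outs, all had intervals within 2-fold (median 0.10, 3 at an unadjusted p under 0.05), and of 21 Notch targets 20 did (median 0.01, 3 at an unadjusted p under 0.05). The Notch ligand gene Dl had 1039, 988 and 942 CPM in sd- and 781 to 946 CPM in ctrl libraries of run 1, and 222 and 199 CPM in sd- and 120 and 175 CPM in ctrl libraries of run 2 (0.28, interval 0.06 to 0.50, edgeR adjusted p = 0.516). Of 28 JNK, JAK-STAT and wound genes 22 had intervals within 2-fold and none had an unadjusted p under 0.05. Without sd- run 1 replicate 3, cher of this list was called lower in run 1 (log2 fold change -1.21, edgeR adjusted p = 0.00117), where 0.927% of all genes were called. Of 27 ecdysone response genes 26 had positive values, beside 53.1% of all genes (median 0.20, beside 0.01). Of these 27, 4 had an unadjusted p under 0.05 (7.47% of all genes), none passed in edgeR, and 1 passed in DESeq2 (0.89% of all genes) and 1 in limma-voom (0.286%). The ecdysone-induced gene ImpE2 had 3049, 3657 and 1333 CPM in sd- and 1465 to 3858 CPM in ctrl libraries of run 1, and ctrl replicates 4 and 5 again were the highest of their group.

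**Figure D5:**
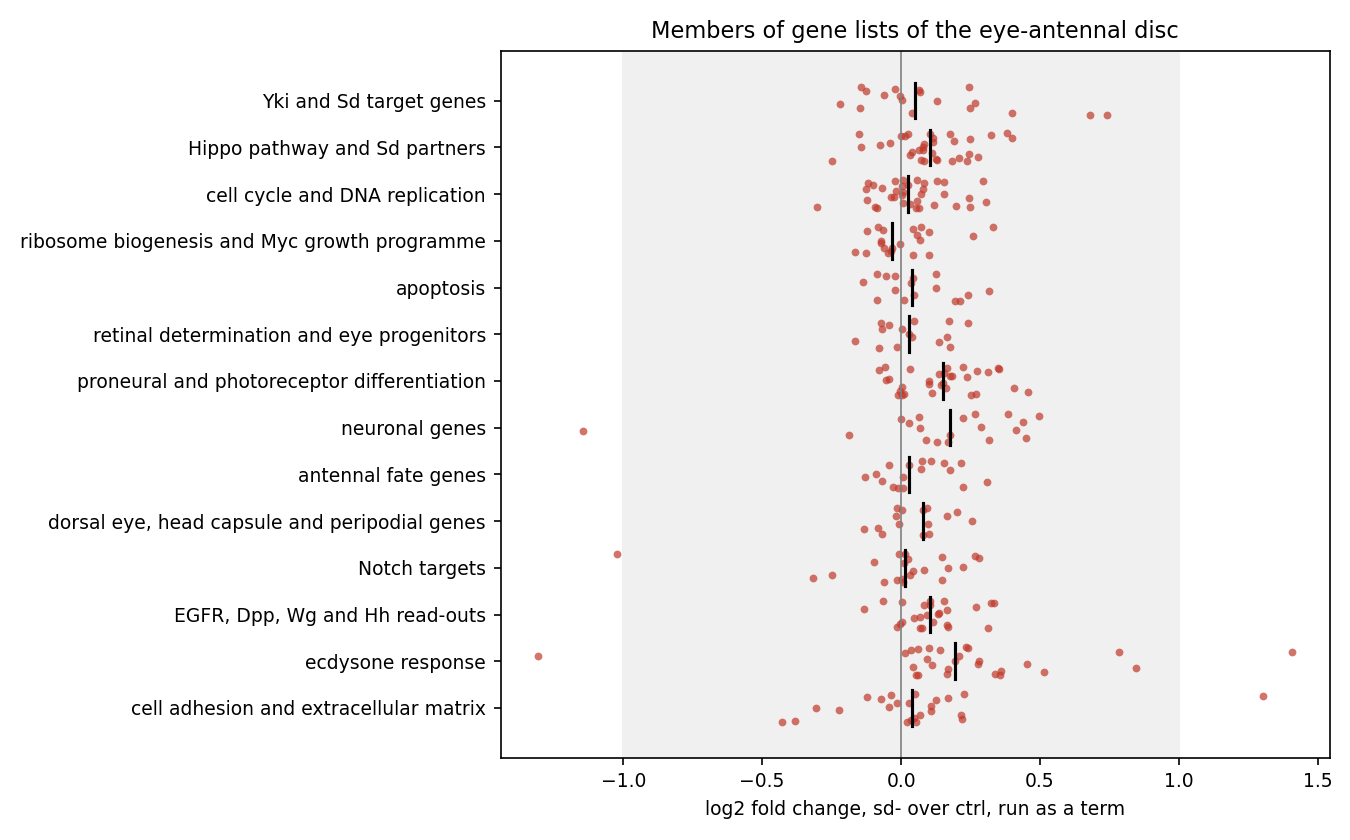
Log2 fold change of sd- over ctrl with run as a term for the tested members of 14 gene lists, 1 point per gene, with the list median as a black bar and changes under 2-fold shaded. No member of these lists passed in edgeR, and list medians lie between -0.03 and 0.20.

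Of 32 gene lists in all, the only member that passed with run as a term in edgeR was Cpr92A. It was 1 of 42 tested cuticle genes, where 0.0879% of all genes passed. Of the 42, 16 had a positive log2 fold change, beside 53.1% of all genes, and 26 a negative one (median -0.13). Lists of other tissues were examined because dissected discs can carry attached cells. The 10 ring gland genes of ecdysteroid synthesis summed to 72.7 to 226 CPM in sd- and 63.3 to 212 CPM in ctrl libraries of run 1, and 733 and 905 CPM in sd- and 289 and 586 CPM in ctrl libraries of run 2. The 15 hemocyte genes summed to 371 to 954 CPM in sd- and 452 to 773 CPM in ctrl libraries of run 1, with the highest value in sd- replicate 3, and to 623 and 585 CPM in sd- and 641 and 627 CPM in ctrl libraries of run 2. The 16 fat body genes summed to 166 to 179 CPM in sd- and 146 to 463 CPM in ctrl libraries of run 1, and 208 and 249 CPM in sd- and 195 and 578 CPM in ctrl libraries of run 2, where 1 ctrl library of each run was high. The 12 glial genes summed to 805 to 1261 CPM in sd- and 693 to 821 CPM in ctrl libraries of run 1, and to 1171 and 1140 CPM in sd- and 1043 and 1094 CPM in ctrl libraries of run 2. In run 2 the hemocyte sums were lower and the glial sums higher in both sd- libraries than in either ctrl library. Of all tested genes, 51.2% were likewise without overlap in run 2. Among these 4 lists none passed in edgeR, DESeq2 called 1 glial gene (0.89% of all genes) and limma-voom none (0.286%). An unadjusted p under 0.05 was found for 0 of 9 tested ring gland, 2 of 15 hemocyte, 4 of 12 fat body and 2 of 10 glial genes, beside 7.47% of all genes. Median log2 fold changes were 0.48, -0.05, -0.95 and -0.03, beside 0.01. No defining gene of the 4 lists was at 0 in all 12 libraries. Muscle, trachea, salivary gland and brain lists had 1 of 16, 1 of 11, 0 of 8 and 4 of 14 genes at an unadjusted p under 0.05. The part of other tissues in the results was not tested.

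The same sd47M allele was also present, in the same study, in discs that expressed the activated form yki3SA, and those libraries share none with the comparison above. In run 2 the yki3SA library had the FRT42D and tub-Gal4 construct and the yki3SA sd- libraries the FRT19A construct, so that sd and construct cannot be told apart there either. The genes were looked up there after their values were known, in a fit of all 23 MARCM libraries in which 52.1% of 10014 tested genes passed in run 1 and 22.5% in run 2 between yki3SA sd- and yki3SA discs. mthl8 had 0 counts in all 3 yki3SA sd- libraries of run 1, against 8.17 to 10.5 CPM in the 5 yki3SA libraries. In run 2, mthl8 had 7.65 and 6.09 CPM in yki3SA sd- and 14.9 CPM in the single yki3SA library, on the same side. Tektin-C was not high in those discs, with 0.127, 0 and 0 CPM in yki3SA sd- and 0 to 0.162 CPM in yki3SA libraries of run 1, and 1.59 and 0.224 CPM in yki3SA sd- and 0.132 CPM in the yki3SA library of run 2. Cpr92A had 8.51, 9.90 and 17.2 CPM in yki3SA sd- and 1.88 to 2.64 CPM in yki3SA libraries of run 1, on the same side as in sd- alone. CG14257 and CG32364 lay on the opposite side, with 36.9 to 74.9 CPM in yki3SA sd- and 5.59 to 14.6 CPM in yki3SA libraries of run 1 for CG14257, and 4.49 to 8.89 CPM in yki3SA sd- and 13.8 to 22.6 CPM in yki3SA libraries of run 1 for CG32364. Of the other called genes, let-7-C lay on the same side, with 54.8, 121 and 12.1 CPM in yki3SA sd- and 2.55 to 5.17 CPM in yki3SA libraries of run 1. Cyp6a23 had 0.236 to 1.02 CPM in yki3SA sd- and 0.126 to 1.20 CPM in yki3SA libraries of run 1, a log2 fold change of 0.59 that did not pass (edgeR adjusted p = 0.426). CG2187 had at most 0.499 CPM in yki3SA sd- and 0.242 CPM in yki3SA libraries of run 1 and did not pass (edgeR adjusted p = 0.486). CR40469 had 15752, 1867 and 21235 CPM in yki3SA sd- and 295 to 624 CPM in yki3SA libraries of run 1, and 0 and 0 CPM in yki3SA sd- and 28.3 CPM in the yki3SA library of run 2.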

How the data were processed

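Counts per gene and library of eye-antennal discs were deposited by the authors as whole numbers. The tools that the submitters' processing notes name are cutadapt, FastQC and STAR 2.6.1d, with dm6 as genome. Neither counting software nor strandedness nor gene models could be taken from the labels, so overlapping, antisense and paralogous genes are uncertain. Of 16727 symbols, 16508 were given a position from the Ensembl annotation of that assembly, 3996 of them through an older name.

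The 12 libraries were fitted with edgeR 4.0.16 in R 4.3.3 (filterByExpr, TMM, robust quasi-likelihood F test), with run as a term, and again with 1 mean per group and run to obtain each run and their difference. Benjamini-Hochberg adjustment ran over all 9100 tested genes, and a gene passes where its adjusted p is under 0.05. Intervals are 95% intervals from the model's standard errors. A fold against a group at 0 was computed from a floor of 3 counts over the group. Intervals and floors cover counting and library spread only. The fit was also run on simulated counts with 1 mean per gene and run, apart from changes put in. Those counts held neither the outlying sd- run 1 replicate 3 nor the grouping within run 1, and no conclusion is drawn from them. Alternatives were DESeq2 1.42.0, limma-voom (limma 3.58.1), other scalings and filters, a replicate block, no run term, single-run fits, all 23 MARCM libraries and leaving out each library.

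The genes, the comparisons and the 32 lists were chosen with earlier results of these data known. Named genes were sd and yki, up to 10 per direction with run as a term, up to 5 per direction in each run and in their difference with a mean of at least 10 CPM, up to 4 per list, and those that passed near sd. All genes that passed with run as a term or in both runs were named, and members of the target and Hippo lists beyond the rule, as were ed and Appl, were named after their values were seen. Replicate numbers do not pair the samples. In a chi-square comparison of counts over all 66 pairs of the 12 libraries, none agreed within sampling noise (lowest chi-square per degree of freedom 3.22).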

Additional observations from a re-analysis of the deposited data

Results flagged for a closer look

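The change of sd- over ctrl differed between the runs by a test of the difference (edgeR, adjusted p under 0.05) for 32 genes, and 10 of them are given here as the log2 fold change of run 1 minus that of run 2. More positive in run 1 were Cyp6a17 (8.93), CR40469 (7.05), CG4210 (4.94), dpr19 (2.11) and CG3568 (2.08). The value of Cyp6a17 rests on 0 counts in both sd- libraries of run 2, against 4.32 and 5.70 CPM in ctrl libraries, which is at least 93.4-fold lower with a floor of 3 counts over the group, so its fitted value is no bound. CG4210 had 3.23 to 4.83 CPM in sd- and 0.0802 to 0.476 CPM in ctrl libraries of run 1, and 8.92 and 6.95 CPM in sd- and 11.2 and 13.2 CPM in ctrl libraries of run 2. More negative in run 1 were SK (-4.27), Spn47C (-3.92), CR34335 (-3.65), CG5326 (-3.04) and blanks (-2.33). The potassium channel gene SK had 12.8, 14.7 and 51.1 CPM in sd- and 73.3 to 98.4 CPM in ctrl libraries of run 1, and 37.7 and 36.6 CPM in sd- and 6.87 and 5.91 CPM in ctrl libraries of run 2, so the groups were separated in opposite directions.

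Single libraries stood apart in 15 of 195 group checks. Chance flags about 1 in 20 of independent checks. These checks share libraries, some pool both runs, and some genes were chosen after their values were seen, so that rate does not apply. Each value is the gap between the library and its nearest neighbour as a share of the group's range. In sd- run 1 replicate 3 the flagged values were yki (0.884), roX1 (0.988), roX2 (0.981) and CG5326 (0.757) over the 5 sd- libraries. The salivary gland genes had a high sum in sd- run 1 replicate 2 (0.897). CG3339 was highest in sd- run 2 replicate 2 (0.746), with 24.8 CPM against 6.32 CPM in the next library. Among ctrl libraries, fat body genes were high in run 1 replicate 2 (0.940), which also held the highest ctrl values of Tektin-C (0.585) and CG2187 (1.00 within run 1 and 1.00 over both runs). Glial genes were lowest in run 1 replicate 1 (0.732), where CG3339 was highest (1.00 within run 1 and 0.828 over both runs). The flagged ctrl values rest on 4 counts for Tektin-C, 1 for CG2187 and 4 for CG3339. CG3568 was highest in run 1 replicate 4 (0.875) and roX1 in run 2 replicate 2 (0.737).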

How the results depend on the processing

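Counts of genes that passed moved with the tool, with a filter at 10 CPM and with single libraries. Of the 8 genes with run as a term, DESeq2 gave 81, limma-voom 26, a mean of at least 10 CPM 1 and a fit with no run term 1. The replicate numbers do not pair the samples, and a replicate block left 1 with run as a term and 1 in run 1 alone. For run 1 (29) the counts were 126 with DESeq2, 13 at 10 CPM and 13 with the run fitted alone. For run 2 (52) they were 106 with DESeq2, 97 with limma-voom, 26 at 10 CPM and 370 with the run fitted alone. For the difference (32) they were 102, 51 and 12 with DESeq2, limma-voom and 10 CPM. Leaving out each library gave 2 to 19 with run as a term, 13 to 84 in run 1, 10 to 124 in run 2 and 12 to 99 for the difference. The highest values were without sd- run 1 replicate 3. With run as a term the count was 3 without sd- run 2 replicate 1, 4 without ctrl run 1 replicate 2, 5 without ctrl run 2 replicate 1 and 2 without ctrl run 2 replicate 2. Other scalings, no filter and the fit of 23 libraries kept the counts within 1.5 times. The cause of these shifts was not tested. Tektin-C passed in 20 of 20 alternatives, mthl8 in 19 of 21, Cpr92A in 17 of 20, Cyp6a23 in 15 of 20, CG2187 in 14 of 20, CG32364 in 9 of 20, CG14257 in 6 of 21 and let-7-C in 5 of 21. None of the 8 changed sign. Genes under about 1 CPM can have intervals too wide to exclude a 2-fold change in at least 1 direction. So can genes that differ among ctrl libraries of run 1, such as yki.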

Other observations

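Genes present in the libraries of a single group and run were looked at after their values were seen. CG17669 had 3.97, 3.49 and 2.79 CPM in the sd- libraries of run 1 and 0 counts in the 5 ctrl libraries, at least 54.6-fold higher with a floor of 3 counts over the group, and 0 counts in all 4 libraries of run 2. CG32506 had 0.143 and 0.108 CPM in sd- and 7.92 and 8.31 CPM in ctrl libraries of run 2, and at most 0.164 CPM in sd- and 0.595 CPM in ctrl libraries of run 1. CG3339 had 6.32 and 24.8 CPM in sd- and 0 and 0.0696 CPM in ctrl libraries of run 2, and at most 0.124 CPM in sd- and 0.405 CPM in ctrl libraries of run 1.

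Among heat shock genes no member passed in either run in edgeR. Hsp70Ba, an inducible chaperone gene, had 79.2 and 69.5 CPM in sd- and 16.2 and 28.1 CPM in ctrl libraries of run 2, and at most 0.357 CPM in any library of run 1. With run as a term it passed without sd- run 1 replicate 3 (edgeR, log2 fold change 1.76, adjusted p = 0.0114) and not with all libraries (adjusted p = 0.141). Of 19 tested heat shock and stress genes, limma-voom called 4 (0.286% of all genes), DESeq2 called 2 (0.89%) and edgeR none (0.0879%), with 8 at an unadjusted p under 0.05 in edgeR (7.47%).

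The neighbours Cyp6a17 and Cyp6a23 differed in pattern. Cyp6a23 was low in sd- libraries of both runs, whereas Cyp6a17 had 13.5, 16.5 and 7.54 CPM in sd- and 13.4 to 19.4 CPM in ctrl libraries of run 1, beside 0 counts in sd- and 4.32 and 5.70 CPM in ctrl libraries of run 2.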
